A study of Homo sapiens with 8 samples.

Results

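Messenger RNA of 6 genes of the aryl hydrocarbon receptor (AhR) pathway was followed in the RNA sequencing of A549-S3KO cells: AHR, ARNT, AHRR, TIPARP, CYP1A1 and CYP1B1. They were taken by gene symbol, not by their values, from the 30017 symbols in the tables, and each had 1 record. The 8 libraries formed 4 groups with n = 2 each. Smad3(RA/KP) cells, A549-S3KO cells that received a Smad3 carrying R104K and A105P through a lentivirus, were sampled after 8 h with 1 ng/ml TGF-β and without TGF-β. Wild-type Smad3 cells, which received the unmutated form in the same way, were sampled likewise. All groups descend from cells of A549, a lung adenocarcinoma line, whose SMAD3 gene had been disrupted, and all were seeded on collagen. Infected cells were cloned by limiting dilution, and among the wild-type clones the lowest expresser was chosen. Since it is not stated which clones were sequenced, the Smad3 form and the clone cannot be told apart in any comparison between the lines.

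AhR is a ligand-activated transcription factor of the bHLH-PAS family, known for sensing dioxins, polycyclic aromatic hydrocarbons and tryptophan metabolites. Without ligand it is held in the cytosol by HSP90 and its partners. With ligand it enters the nucleus, pairs with ARNT, and binds the xenobiotic response element, whose core is GCGTG. Its classical targets include the oxygenases CYP1A1 and CYP1B1 and also its own brakes, the repressor AHRR and the ADP-ribosyltransferase TIPARP. In airway epithelium these enzymes act on inhaled hydrocarbons. No AhR ligand is named among the treatments of these cells.

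Transcript levels are given as TPM, each gene's length-adjusted share of the transcripts in a library. By the mean of the 8 libraries the order was TIPARP at 29.6 TPM, CYP1B1 at 25.3 TPM, ARNT at 10.5 TPM, AHRR at 2.30 TPM, AHR at 2.03 TPM and CYP1A1 at 0.519 TPM. Neighbors in this order overlapped in their ranges over the 8 libraries, except ARNT and AHRR. CYP1B1 spanned 6.21 to 44.1 TPM and thus crossed the level of ARNT, while TIPARP stayed within 24.9 to 35.6 TPM. The receptor itself was among the scarcer members, and 11689 other genes had a higher mean.

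Mapped sequence was 1.15 to 1.81 Gb per library, and 12773 to 13281 genes reached 1 TPM. The depth behind the scarce members was small, with a mean base coverage of 0.690 to 2.53 for AHR, 0.880 to 3.07 for AHRR and 0 to 1.09 for CYP1A1, against 4.68 to 35.4 for CYP1B1. ARNT, despite its higher TPM, had a coverage of only 1.33 to 3.77. SMAD3 was present at 137 to 187 TPM in every library, a level that does not separate introduced from endogenous transcripts. SMAD7, an inhibitory Smad that TGF-β induces, had 36.5 and 30.7 TPM in treated Smad3(RA/KP) cells, against 15.4 and 15.3 TPM in untreated ones, and 32.3 and 31.5 TPM in treated wild-type cells, against 15.5 and 14.6 TPM in untreated ones. The epithelial keratins KRT8 and KRT18 were abundant, EPCAM and CDH1 were low at up to 3.95 and 10.3 TPM, and KRT19 was listed at 0 throughout. CDKN2A, which A549 has lost, and the blood, endothelial and fibroblast markers PTPRC, CD3E, PECAM1, VWF and DCN were also at 0, although CD14 had 4.10 to 13.5 TPM and LUM 0.330 to 5.19 TPM. The untreated Smad3(RA/KP) group stood apart from the other groups. The difference of its replicate 2 from its replicate 1 followed the GC content of transcripts (Spearman rho = -0.589 over 11535 genes), against 0.104 to 0.225 in the other groups. This value does not tell which of the 2 libraries deviated. The GC content of the longest transcript was 38.2% for AHR, 42.8% for TIPARP, 44.0% for CYP1B1, 46.2% for ARNT, 53.1% for CYP1A1 and 57.9% for AHRR.

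The records lay on GRCh38 at chr7:17298652-17346151 for AHR, chr1:150809705-150876768 for ARNT, chr5:304176-438291 for AHRR, chr3:156674416-156706770 for TIPARP, chr15:74719542-74725610 for CYP1A1 and chr2:38067603-38076181 for CYP1B1. AHRR overlaps PDCD6 and the read-through gene PDCD6-AHRR on the same strand, so its values may share reads with them. TIPARP-AS1 and CYP1B1-AS1 lie on the opposite strands of TIPARP and CYP1B1. CYP1B1-AS1 was at 0 in every library and TIPARP-AS1 stayed between 0.249 and 1.20 TPM. RefSeq start sites (GRCh38.p14) were found for 5 of the 6 members, and windows of 300 bases, with 250 before and 50 after the start, were searched on both strands for GCGTG. The window of ARNT held none. The windows below are shown because they hold the letters of the AhR core in members whose transcripts are described next; capitals mark the core, written CACGC where it lies on the other strand.
AHR (chr7:17298402-17298701, plus strand): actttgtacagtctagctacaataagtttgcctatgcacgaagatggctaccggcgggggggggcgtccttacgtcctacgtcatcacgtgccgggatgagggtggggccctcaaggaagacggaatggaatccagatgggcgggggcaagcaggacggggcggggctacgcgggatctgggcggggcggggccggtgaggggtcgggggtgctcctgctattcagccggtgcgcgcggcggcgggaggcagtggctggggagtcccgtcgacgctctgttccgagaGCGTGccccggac
AHRR (chr5:321464-321763, plus strand): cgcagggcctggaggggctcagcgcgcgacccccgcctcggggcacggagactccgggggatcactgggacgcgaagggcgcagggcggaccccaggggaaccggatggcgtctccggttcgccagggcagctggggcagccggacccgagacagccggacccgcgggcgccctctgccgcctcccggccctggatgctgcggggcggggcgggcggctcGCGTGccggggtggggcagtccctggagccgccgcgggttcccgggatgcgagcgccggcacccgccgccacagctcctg
TIPARP (chr3:156674340-156674639, plus strand): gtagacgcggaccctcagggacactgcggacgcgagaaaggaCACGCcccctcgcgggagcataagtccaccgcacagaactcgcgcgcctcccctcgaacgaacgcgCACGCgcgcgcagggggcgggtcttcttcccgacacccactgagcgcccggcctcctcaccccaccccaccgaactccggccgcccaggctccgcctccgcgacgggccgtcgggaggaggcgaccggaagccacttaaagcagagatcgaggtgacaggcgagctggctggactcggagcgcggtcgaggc
CYP1A1 (chr15:74725479-74725778, minus strand): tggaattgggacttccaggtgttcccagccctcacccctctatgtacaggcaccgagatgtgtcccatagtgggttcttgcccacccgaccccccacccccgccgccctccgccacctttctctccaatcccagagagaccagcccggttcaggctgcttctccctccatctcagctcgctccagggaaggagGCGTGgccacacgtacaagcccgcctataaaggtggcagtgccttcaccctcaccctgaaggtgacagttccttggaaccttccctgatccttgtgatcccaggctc
In AHRR the core began 30 bases upstream of the start, in CYP1A1 57 bases upstream, and in TIPARP 208 and 142 bases upstream. In AHR it began 37 bases past the start. A second AHRR start had 2 cores, and 2 further TIPARP starts had none. The AHRR starts lie 17538 and 18434 bases inside the AHRR record, and no window at the record's own start was searched. These 5 letters occur in 36.5% of 35116 windows of the same length, so their presence does not set the members apart. The longer form TNGCGTG, present in 5.51% of windows, was found in the first AHRR window, and the Smad-type letters CAGAC, present in 45.3%, in the second AHRR window.

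**Figure D1:**
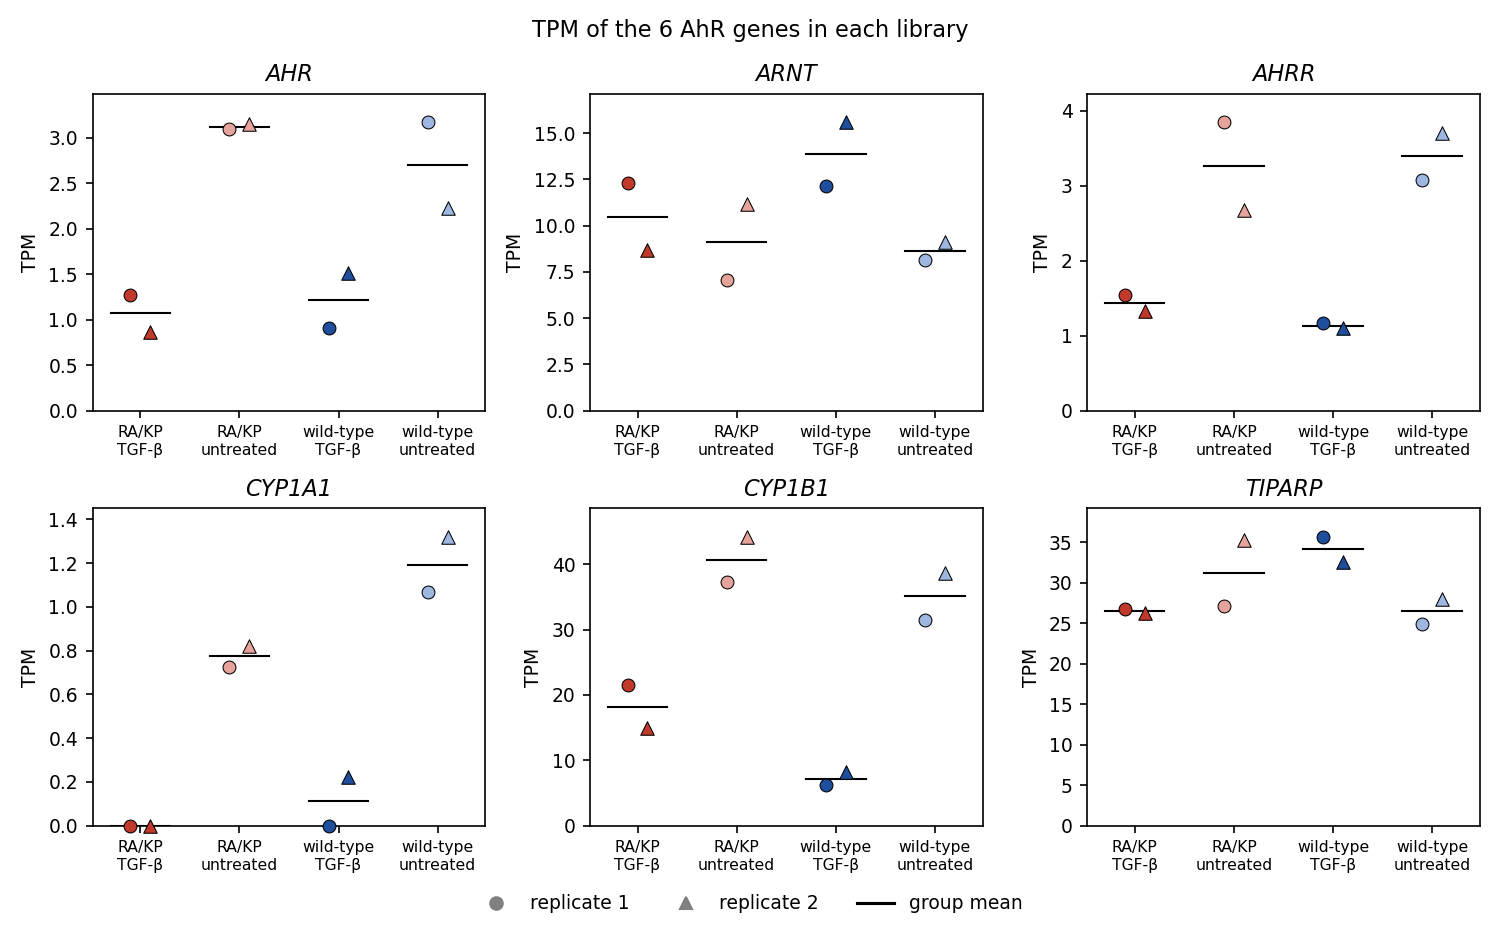
TPM of each gene in every library, with both Smad3(RA/KP) groups left of the wild-type groups, treated left of untreated; symbols mark the replicates, lines the group means, and each vertical axis starts at 0. AHR, AHRR, CYP1A1 and CYP1B1 are lower in all 4 treated libraries than in all 4 untreated ones, and treated CYP1B1 is higher in Smad3(RA/KP) cells (21.5 and 14.9 TPM) than in wild-type cells (6.21 and 8.14 TPM).

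The first question was how TGF-β moved the pathway in each line. CYP1B1 fell in both, and it was the member whose change passed the test across 13141 genes in each line. AHR and AHRR had lower values in every treated library, but neither passed in either line. CYP1A1 was too scarce to be tested, and ARNT and TIPARP did not pass. By level alone, both treated libraries lay below both untreated ones for AHR, AHRR, CYP1B1 and TIPARP in Smad3(RA/KP) cells, 4 of 5 tested members against 25.4% of tested genes, and above them for 0 members against 19% of genes. In wild-type cells they lay below for AHR, AHRR and CYP1B1, 3 of 5 against 27.9% of genes, and above for ARNT and TIPARP, 2 of 5 against 17.8%. By the test, 1 of 5 tested members was called lower in Smad3(RA/KP) cells, where 1.5% of all tested genes were called lower, and 1 of 5 in wild-type cells, where 1.74% were. No tested member was called higher, against 3.49% of genes in Smad3(RA/KP) cells and 2.94% in wild-type cells. The median log2 fold change of the tested members was -0.80 in Smad3(RA/KP) cells, where the median of all tested genes was -0.10, and -0.74 in wild-type cells, where it was -0.06. The fold changes were taken on log2(TPM + 1), a scale that understates those of scarce genes, and adjusted p-values are from limma with Benjamini-Hochberg adjustment. In bulk RNA, fewer cells that express a gene and less RNA per cell cannot be told apart.

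AHR encodes the receptor. It had 1.28 and 0.861 TPM in treated Smad3(RA/KP) cells, against 3.09 and 3.16 TPM in untreated ones. In wild-type cells it had 0.915 and 1.52 TPM with TGF-β and 3.17 and 2.23 TPM without. The treated values lay below the untreated ones in both lines, with the wider spread in wild-type cells. Within replicates 1 and 2 the treated level was 41.3% and 27.3% of the untreated one in Smad3(RA/KP) cells and 28.8% and 68.1% in wild-type cells. The log2 fold change was -1.00 ± 0.29 (SE, adjusted p = 0.0966) in Smad3(RA/KP) cells and -0.74 ± 0.29 (SE, adjusted p = 0.243) in wild-type cells, and neither passed. Removing the GC trend brought the change in Smad3(RA/KP) cells to -0.63 (adjusted p = 0.191).

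ARNT is the nuclear partner of AhR and also of the hypoxia-inducible factors. In treated Smad3(RA/KP) cells it had 12.3 and 8.68 TPM, against 7.04 and 11.2 TPM in untreated ones, and these values overlapped. In treated wild-type cells it had 12.1 and 15.6 TPM, against 8.17 and 9.13 TPM in untreated ones, where the treated values were the higher. Its response was 0.20 on the log2 scale after Smad3(RA/KP) (adjusted p = 0.691) and 0.62 ± 0.27 after wild-type Smad3 (SE, adjusted p = 0.294), and neither passed. For the mutant line the direction depended on single libraries, since it was -0.10 without untreated replicate 1 and -0.21 without treated replicate 1.

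AHRR resembles AhR, competes with it for ARNT and represses its targets. It had 1.54 and 1.32 TPM in treated Smad3(RA/KP) cells, against 3.84 and 2.67 TPM in untreated ones. Treated wild-type cells had 1.17 and 1.10 TPM of it, and untreated ones 3.08 and 3.70 TPM. Every treated value was below every untreated one. The treated level was 40.0% and 49.5% of the untreated one in Smad3(RA/KP) cells and 37.9% and 29.7% in wild-type cells. The log2 fold change of -0.80 ± 0.27 (SE, adjusted p = 0.142) in Smad3(RA/KP) cells and that of -1.04 ± 0.27 (SE, adjusted p = 0.0729) in wild-type cells did not pass. With the GC trend removed both did, at adjusted p = 0.0267 in Smad3(RA/KP) cells and 0.0190 in wild-type cells.

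TIPARP adds ADP-ribose to AhR and limits its activity. It had 26.7 and 26.3 TPM in treated Smad3(RA/KP) cells, against 27.1 and 35.2 TPM in untreated ones, and 35.6 and 32.6 TPM in treated wild-type cells, against 24.9 and 28.0 TPM in untreated ones. The higher untreated value in Smad3(RA/KP) cells came from replicate 2, 1 of the 2 libraries whose difference followed GC content. Its log2 fold change was -0.21 in the mutant line (adjusted p = 0.522) and 0.35 ± 0.19 (SE, adjusted p = 0.410) in wild-type cells. With the GC trend removed the Smad3(RA/KP) value turned to 0.058. Of the AhR targets among the members, TIPARP was thus the one whose treated and untreated levels were closest.

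CYP1A1 oxidizes polycyclic hydrocarbons and is a widely used readout of AhR activity. It was listed at 0 in both treated Smad3(RA/KP) libraries, against 0.726 and 0.821 TPM in untreated ones. In wild-type cells it was listed at 0 in treated replicate 1 and had 0.221 TPM in treated replicate 2, against 1.07 and 1.32 TPM in the untreated ones. All treated values were under all untreated ones, and no fold is given against groups at 0. A value of 0 at this depth does not show absence of the transcript. In the whole series, 1 of 2820 genes averaging 50 TPM or more was listed at 0 in some library. CYP1A1 was under the minimum mean of 1 TPM and so was not tested. In the fit without that minimum its adjusted p was 0.0516 in Smad3(RA/KP) cells and 0.0373 in wild-type cells, and with a minimum and a pseudocount of 0.25 TPM, chosen after seeing the data, 0.0984 and 0.0949 in these cells. CYP1A2, its neighbor in the family, was listed at 0 in every library.

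CYP1B1 oxidizes estrogens and polycyclic hydrocarbons, and it was the most abundant CYP1 transcript here. It had 21.5 and 14.9 TPM in treated Smad3(RA/KP) cells, against 37.3 and 44.1 TPM in untreated ones. Treated wild-type cells had 6.21 and 8.14 TPM of it, and untreated ones 31.5 and 38.7 TPM. The groups were separate within each line. Treated cells kept 57.8% and 33.8% of the untreated level in Smad3(RA/KP) cells, and 19.7% and 21.0% in wild-type cells, so that the replicates agreed closely in wild-type cells and less so in Smad3(RA/KP) cells. The log2 fold change was -1.13 ± 0.24 (SE, 95% interval -1.67 to -0.60, adjusted p = 0.0305) in Smad3(RA/KP) cells. It was -2.15 ± 0.24 (SE, 95% interval -2.69 to -1.61, adjusted p = 0.00145) in wild-type cells.

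The fall in wild-type cells passed under all 20 other settings and library sets tried, at log2 fold changes of -2.31 to -1.72. The fall in Smad3(RA/KP) cells kept its direction in all 20, at -1.53 to -0.74, but passed in 12. It no longer passed without treated Smad3(RA/KP) replicate 2 (-0.74, adjusted p = 0.219) or without untreated Smad3(RA/KP) replicate 2 (-1.04, adjusted p = 0.157). Leaving out either treated wild-type library, which changes only the estimate of spread and the replicate effect here, gave adjusted p = 0.0689 and 0.0696. CYP1B1 in the mutant line also did not pass with no replicate block (adjusted p = 0.0569), with a block within each line (0.0571), with no mean-variance trend (0.0562) or with no filter on low values (0.122).

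**Figure D2:**
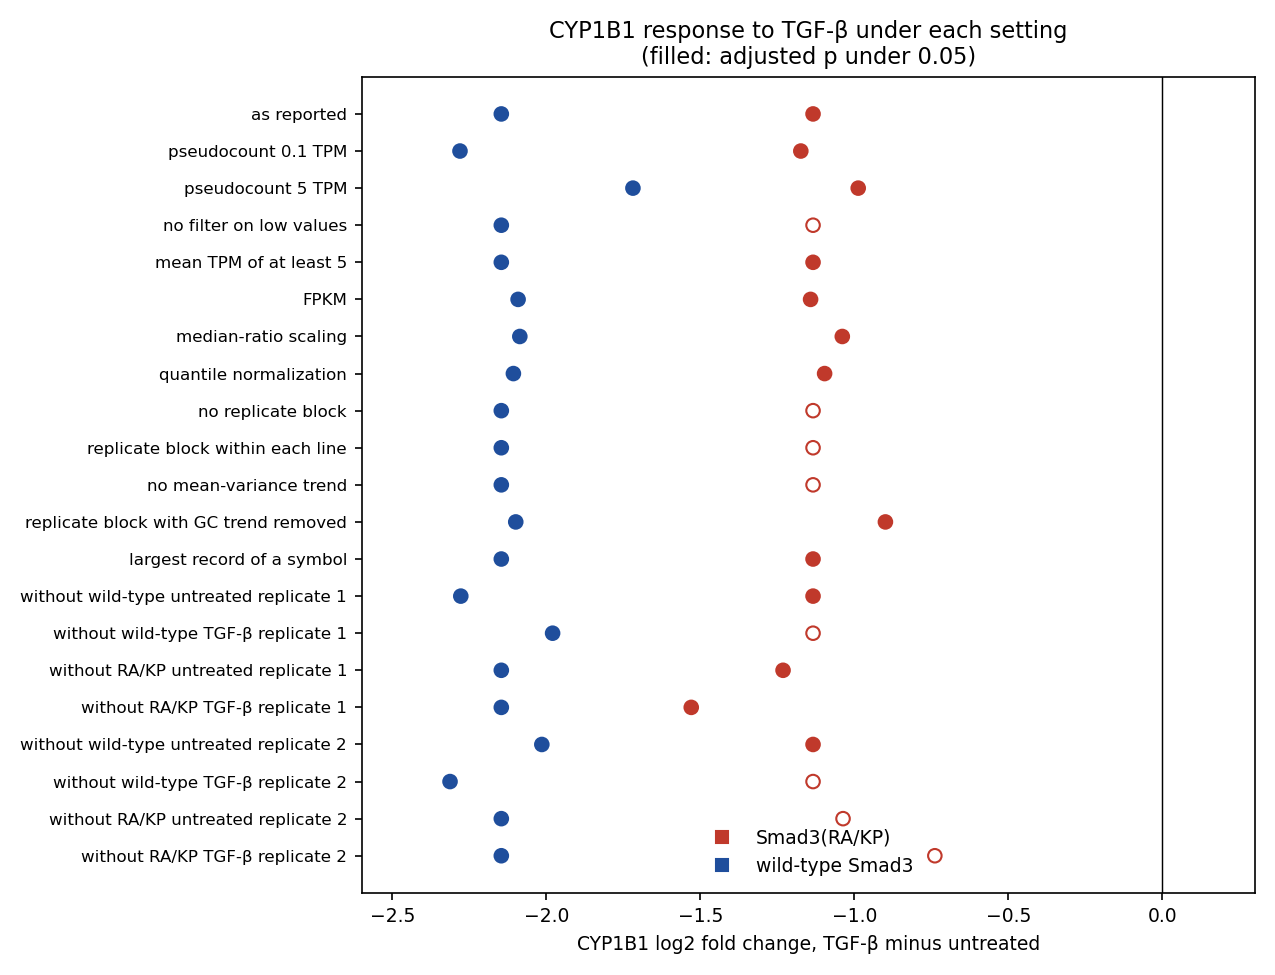
CYP1B1 log2 fold change between treated and untreated cells, on log2(TPM + 1) except where the row names another pseudocount or unit, as reported and under each of the 20 other settings, with a filled symbol where the adjusted p was under 0.05. The wild-type symbols stay between -2.31 and -1.72 and are all filled, and the Smad3(RA/KP) symbols stay between -1.53 and -0.74 with 8 open.

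Since both lines had lower AHR and AHRR with TGF-β, the mean of both responses was also computed, a contrast chosen after these values had been seen. Its test repeats the observation that prompted it, so its calls of AHR and AHRR describe these libraries and are not independent support. It called 11.3% of the 13141 genes, with 6.22% higher and 5.08% lower. CYP1B1 had a mean response of -1.64 ± 0.17 (SE, adjusted p = 0.000398), AHRR of -0.92 ± 0.19 (SE, adjusted p = 0.0164) and AHR of -0.87 ± 0.21 (SE, adjusted p = 0.0284), so 3 of 5 members were called lower. CYP1B1 passed in all 20 alternatives, AHRR in 15 of 19 and AHR in 10 of 19, with adjusted p reaching 0.0941 for AHRR and 0.160 for AHR. ARNT at 0.41 (adjusted p = 0.214) and TIPARP at 0.07 (adjusted p = 0.780) did not pass, although ARNT did with the GC trend removed (0.51, adjusted p = 0.0303). AHR did not pass with a block within each line (adjusted p = 0.0628) or with no filter on low values (adjusted p = 0.0644). AHR no longer passed when any library other than untreated Smad3(RA/KP) replicate 1 was left out. AHRR was lost as well, which left CYP1B1 as the 1 member called, without either treated wild-type library, untreated wild-type replicate 2 or treated Smad3(RA/KP) replicate 2. By level, the 4 treated libraries lay below the 4 untreated ones for AHR, AHRR and CYP1B1, 3 of 5 tested members, as they did for 8.69% of tested genes, and 0 members lay above, against 6.96% of genes.

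The second question was whether the response depended on the Smad3 form. For CYP1B1 it was smaller in Smad3(RA/KP) cells, by 1.01 on the log2 scale (SE 0.34, 95% interval 0.25 to 1.77, unadjusted p = 0.0149), but the adjusted p over all genes was 0.881 and the difference did not pass. It was above 0 under all 20 alternatives, at 0.62 to 1.41, and passed under none. For TIPARP the difference was -0.57 ± 0.26 (SE, 95% interval -1.17 to 0.03, adjusted p = 0.881). AHR differed by -0.26 (adjusted p = 0.909), AHRR by 0.24 (adjusted p = 0.909) and ARNT by -0.42 (adjusted p = 0.883). With limma 0 of 5 members passed and 1, CYP1B1, had an unadjusted p under 0.05, while 0.0228% of all genes passed and 564 had an unadjusted p under 0.05. These values do not show that the responses were alike.

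With TGF-β present in both, CYP1B1 was higher in Smad3(RA/KP) cells than in wild-type cells by 1.22 ± 0.24 (SE, 95% interval 0.68 to 1.76, unadjusted p = 0.000636) on the log2 scale, although the adjusted p of 0.475 did not pass. Treated AHRR also had higher values in Smad3(RA/KP) cells, 1.54 and 1.32 TPM, than in wild-type cells, 1.17 and 1.10 TPM, and treated TIPARP had lower ones. The separation of 2 against 2 libraries is common, with 18.8% of genes higher and 18.7% lower in the same comparison. The log2 differences were 0.19 for AHRR (adjusted p = 0.879), -0.09 for AHR (adjusted p = 0.950), -0.38 for ARNT (adjusted p = 0.756) and -0.35 for TIPARP (adjusted p = 0.712). By limma 0 members passed and 1, CYP1B1, had an unadjusted p under 0.05, while 0.00761% of all genes passed and 973 had an unadjusted p under 0.05.

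Without TGF-β the lines were close. CYP1B1 had 37.3 and 44.1 TPM in Smad3(RA/KP) cells and 31.5 and 38.7 TPM in wild-type cells, which overlapped, and the log2 difference was 0.21. The lines overlapped for all 5 tested members, while 10.1% of tested genes were higher and 8.78% lower in both Smad3(RA/KP) libraries. The other differences were 0.17 for AHR, -0.05 for AHRR, 0.04 for ARNT and 0.22 for TIPARP. By limma 0 of 5 passed and 0 had an unadjusted p under 0.05, while 0.0152% of all genes passed and 329 had an unadjusted p under 0.05. The untested CYP1A1 had 0.726 and 0.821 TPM in Smad3(RA/KP) cells, below the 1.07 and 1.32 TPM in wild-type cells.

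**Figure D3:**
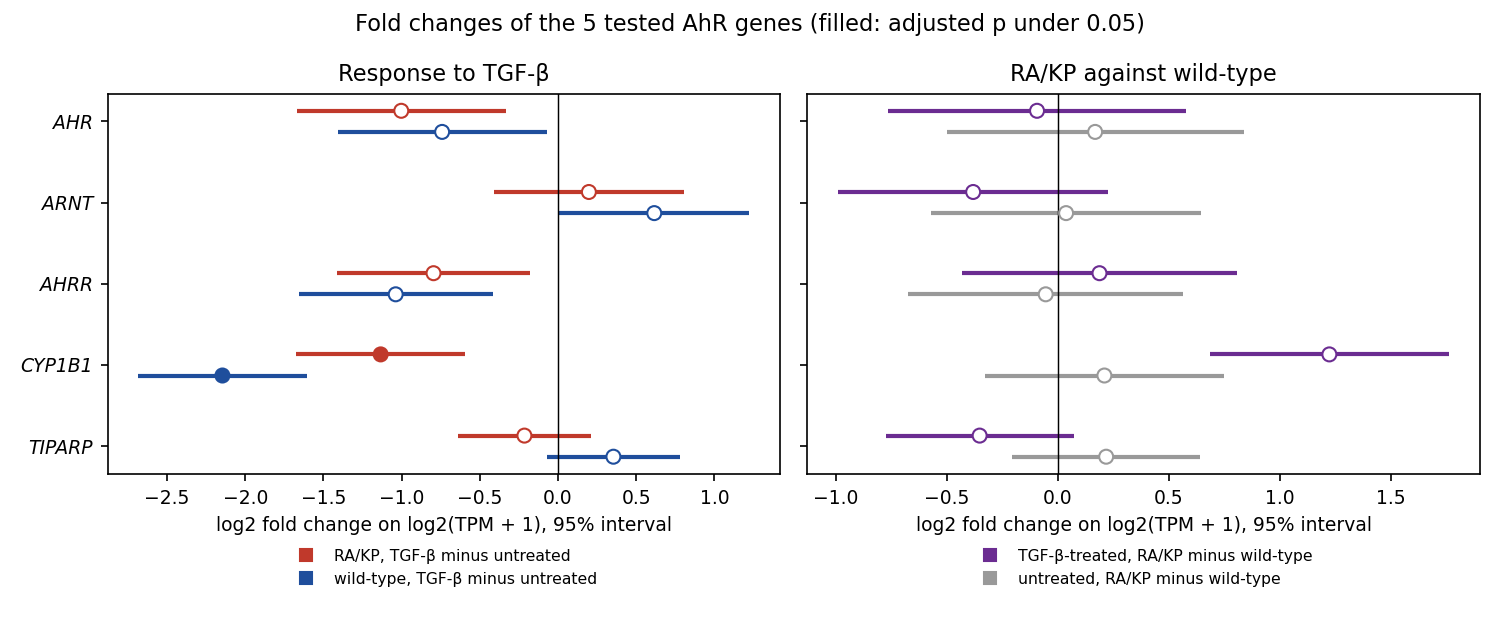
Log2 fold changes of the 5 tested members with 95% intervals, filled where the adjusted p was under 0.05: TGF-β minus untreated in each line on the left, Smad3(RA/KP) minus wild-type on the right with TGF-β and without. CYP1B1 alone is filled, on the left, at -1.13 in Smad3(RA/KP) cells and -2.15 in wild-type cells, and its interval on the right is 0.68 to 1.76 with TGF-β.

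The genes around the receptor were examined by lists written from known function, with earlier results of these data known. The cytosolic complex that holds AhR was abundant, with HSP90AB1 at 764 to 1419 TPM and HSP90AA1 at 315 to 945 TPM, and 0 of its 6 tested genes passed in either line. AHRR corepressors (0 of 3, HDAC5 and ANKRA2 the most abundant) and the ADP-ribosyltransferases and removers related to TIPARP (0 of 8, PARP1 and PARP6 the most abundant) likewise had no call. Of 13 coregulators, 1 rose in wild-type cells. It was KLF6, a zinc finger factor that can partner AhR, with 50.0 and 82.1 TPM in treated cells against 29.2 and 38.4 TPM in untreated ones (log2 fold change 0.92, adjusted p = 0.0205). In Smad3(RA/KP) cells KLF6 did not pass, but its treated values of 56.0 and 64.4 TPM were also above the untreated 31.5 and 44.1 TPM.

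Among 9 tested bHLH-PAS relatives of AhR and ARNT, SIM2 rose in both lines. This developmental factor had 60.3 and 52.3 TPM in treated Smad3(RA/KP) cells against 18.2 and 19.9 TPM in untreated ones (log2 fold change 1.51, adjusted p = 0.00473), and 37.0 and 53.9 TPM in treated wild-type cells against 17.2 and 22.2 TPM (1.15, adjusted p = 0.0155). In wild-type cells the clock factor ARNTL rose (1.24, adjusted p = 0.00645), and NPAS1 fell to 0.937 and 1.83 TPM, against 4.98 and 4.91 TPM (-1.34, adjusted p = 0.0334). For ARNTL both treated Smad3(RA/KP) libraries also lay above both untreated ones, though without a call (0.64, adjusted p = 0.0921), while NPAS1 overlapped there. In all, 1 of the 9 rose and 0 fell in Smad3(RA/KP) cells, and 2 rose and 1 fell in wild-type cells. The median of the 9 was -0.18 in Smad3(RA/KP) cells and close to 0 in wild-type cells, where all tested genes had -0.10 and -0.06.

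Of 16 other AhR targets 9 were tested, and 2 fell in each line while 0 rose. Over all tested genes, 1.5% were called lower in Smad3(RA/KP) cells and 1.74% in wild-type cells. In both lines the 2 targets that fell were EREG, an EGF receptor ligand, and PTGS2, the inducible cyclooxygenase. EREG had 6.44 and 6.68 TPM in treated Smad3(RA/KP) cells against 15.1 and 41.2 TPM in untreated ones, and 3.93 and 7.84 TPM in treated wild-type cells against 17.3 and 21.0 TPM. The 41.2 TPM came from untreated replicate 2, a library that differed from untreated replicate 1 along GC content. The call in Smad3(RA/KP) cells was lost without that library (-1.29, adjusted p = 0.0832) and without treated replicate 2 (-1.39, adjusted p = 0.144), but held with the GC trend removed (-1.38, adjusted p = 0.00746). PTGS2 had 2.36 and 2.15 TPM in treated Smad3(RA/KP) cells against 7.58 and 9.71 TPM, and 2.44 and 2.72 TPM in treated wild-type cells against 11.4 and 6.09 TPM. In the mutant line the log2 fold changes were -1.79 for EREG (adjusted p = 0.0138) and -1.56 for PTGS2 (adjusted p = 0.0209). In wild-type cells they were -1.60 for EREG (adjusted p = 0.0210) and -1.39 for PTGS2 (adjusted p = 0.0346). The median of the 9 was -0.57 in Smad3(RA/KP) cells and -0.49 in wild-type cells, and 1 of 9 and 0 of 9 were above 0. The median of all tested genes was -0.10 and -0.06 in these cells. CYP1A2, UGT1A1, SERPINB2 and IDO1 were listed at 0 in all libraries. NQO1, a quinone reductase shared with the NRF2 pathway and picked after its values were seen, did not pass in either line. It had 709 and 583 TPM in treated Smad3(RA/KP) cells against 952 and 957 TPM, and 700 and 729 TPM in treated wild-type cells against 980 and 891 TPM. Such a separation held for 25.4% of tested genes in Smad3(RA/KP) cells and 27.9% in wild-type cells. Of the other targets that did not pass, NFE2L2 was likewise lower in both lines and CYP2S1 in wild-type cells alone. XDH was higher in Smad3(RA/KP) cells alone, and ALDH3A1, SLC7A5 and STC2 overlapped in both lines. Against the untreated library of the same replicate number, however, ALDH3A1 and STC2 were lower in every treated library. SLC7A5 was lower in all but Smad3(RA/KP) replicate 2. In limma, the mean of both responses, chosen after the values were seen, called 4 of the 9 targets lower, STC2 among them (adjusted p = 0.0188).

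CYP1 enzymes take electrons from POR and from cytochrome b5. Of 3 such donors, CYB5A fell in wild-type cells, with 81.8 and 86.4 TPM against 156 and 138 TPM (log2 fold change -0.79, adjusted p = 0.0220). In Smad3(RA/KP) cells 0 passed, although both treated libraries lay below both untreated ones for CYB5A (-0.59, adjusted p = 0.0714). ARNT also serves the hypoxia factors, and of 9 tested hypoxia genes 2 rose in Smad3(RA/KP) cells and 1 rose and 1 fell in wild-type cells. The angiogenic factor VEGFA rose in both, with log2 fold changes of 1.76 (adjusted p = 0.00184) after Smad3(RA/KP) and 1.28 (adjusted p = 0.00771) after wild-type Smad3. NDRG1 rose in Smad3(RA/KP) cells, by 0.86 (adjusted p = 0.0217). It did not pass in wild-type cells, but was also higher there, at 63.6 and 84.7 TPM against 49.6 and 53.0 TPM. The peptide hormone gene ADM fell in wild-type cells (-1.20, adjusted p = 0.0174). In Smad3(RA/KP) cells ADM overlapped, with 97.1 and 76.4 TPM against 118 and 86.3 TPM. For all of these lists 0 genes passed in the comparisons between the lines, the difference of responses included. Of the calls named in these lists, that of VEGFA in Smad3(RA/KP) cells held in all 20 alternatives, and each of the others was lost when at least 1 library was left out. With no replicate block, EREG and NDRG1 in Smad3(RA/KP) cells and NPAS1, EREG, PTGS2, KLF6 and CYB5A in wild-type cells no longer passed, at adjusted p = 0.0570 to 0.170. CYB5A was also lost with the GC trend removed (adjusted p = 0.0575). For SIM2 in Smad3(RA/KP) cells the highest adjusted p was 0.0529, without treated replicate 1.

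**Figure D4:**
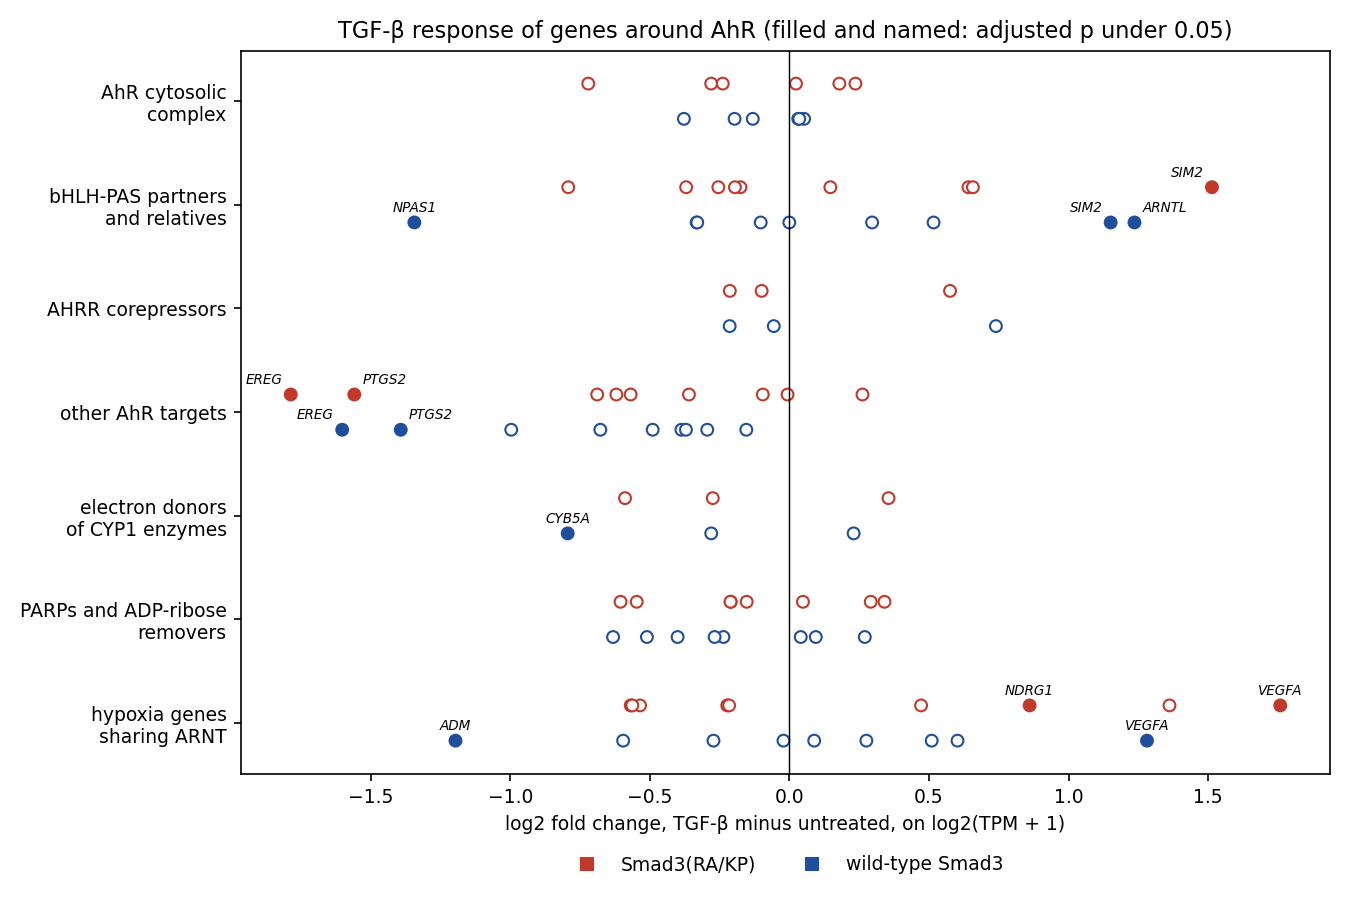
Log2 fold change between treated and untreated cells for each tested gene of 7 lists around AhR, Smad3(RA/KP) above wild-type within each list, filled and named where the adjusted p was under 0.05. Among the other AhR targets EREG and PTGS2 are filled at -1.79 and -1.56 in Smad3(RA/KP) cells and at -1.60 and -1.39 in wild-type cells, while the cytosolic complex has no filled symbol.

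The genes most like each member were sought by Pearson correlation of log2(TPM + 1) over the 8 libraries among 9457 genes averaging 5 TPM or more. The libraries share their treatment and replicate structure, so these values only describe. CYP1B1 was followed most closely by TFAP2A, an epithelial transcription factor (r = 0.987), MTSS1L (r = 0.986) and PKDCC (r = 0.985). TFAP2A had 18.4 and 13.3 TPM in treated Smad3(RA/KP) cells against 23.1 and 24.2 TPM, and 9.16 and 11.9 TPM in treated wild-type cells against 19.9 and 23.1 TPM. Because TFAP2A was picked by this correlation, a group order like that of CYP1B1 follows from the choice and is no separate result. AHR was closest to PLS1 (r = 0.975), TSC22D1 (r = 0.968) and OBFC1 (r = 0.968). AHRR was closest to LOC102723721 (r = 0.984), DNAAF3 (r = 0.983) and the nuclear receptor NR0B1 (r = 0.979). ARNT was closest to YLPM1 (r = 0.984), SMYD2 (r = 0.967) and DSG2 (r = 0.963), and TIPARP to PRKD3 (r = 0.963), CLASP2 (r = 0.926) and B3GALNT2 (r = 0.922). The 5 sets of 3 genes had no gene in common.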

How the data were processed

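RNA from 8 libraries was poly(A)-selected and made into libraries with the Ion Total RNA-Seq Kit v2. The authors aligned reads to GRCh38 and deposited StringTie gene tables made without de novo assembly; the submitters' processing notes name HISAT2 2.1.0 and StringTie 2.0.4. Sources used here do not give the annotation of the gene records. The deposited tables hold, for 33122 records, the base coverage, the FPKM and the TPM as the authors computed them. TPM was used for all results, FPKM as an alternative, and the ratio of coverage to FPKM for mapped bases (1.15 to 1.81 Gb). No read counts are in these tables, so no counting intervals are given.

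Records of 1 symbol were summed (30017 symbols). The 13141 genes averaging 1 TPM or more, 5 of them members, were fitted on log2(TPM + 1) with limma 3.58.1 (R 4.3.3). The model had a term per group and the replicate number as a block, variances were moderated along a trend with the mean (3 residual and 5.90 prior degrees of freedom), and p-values were adjusted by Benjamini-Hochberg, with 0.05 as the threshold. The block, shared by both lines, is an assumption: the replicates are described as independent experiments, and no source states that equal numbers were run together. Contrasts were the TGF-β response in each line, its difference between lines, and the lines compared at each treatment. The members and gene lists were chosen with earlier results of these data known. Named genes were all members, in each list up to 4 genes that passed with the smallest adjusted p (otherwise the 2 most abundant), and the 3 genes most correlated with each tested member. NQO1 and the targets set beside it fall outside this rule. Alternatives were pseudocounts of 0.1 and 5 TPM, no minimum or 5 TPM, FPKM, median-ratio scaling, quantile normalization, other blocks, no trend, GC trend removed, the largest record of a symbol, and each library left out. The mean of both responses and a minimum and pseudocount of 0.25 TPM were added after seeing the data. Promoter windows are from RefSeq, overlaps and GC content from GENCODE, read with Python 3.11.15 and drawn with matplotlib 3.10.9. Some results for genes outside the 6 members are not reported here.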

Additional observations from a re-analysis of the deposited data

Results flagged for a closer look

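TIPARP was flagged by a rule on the signs of its replicate ratios, which were opposite in the lines. Both treated Smad3(RA/KP) libraries were below their untreated replicates, at log2 ratios of -0.02 and -0.41, and both treated wild-type libraries were above theirs, at 0.50 and 0.21. The difference of the responses was -0.57 on the log2 scale, and its test by limma gave an adjusted p of 0.881, so it did not pass. With the GC trend removed the difference was -0.35 (adjusted p = 0.923).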

How the results depend on the processing

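Over 870 alternative values of 42 results, 740 kept their direction and their side of the threshold or stayed near the reported value, and 18 changed sign, all of them log2 fold changes that had not passed. Of the rest, 85 were counts of calls that moved away from the reported count. Another 21 were log2 fold changes that lost their call, and 6 were ones that gained it. With no replicate block the number of members called was 0 in Smad3(RA/KP) cells (CYP1B1, adjusted p = 0.0569) and unchanged at 1 in wild-type cells, and the calls over all genes were 269 and 277, against 655 and 615. Deviations from the group means of equally numbered libraries correlated at 0.0484 to 0.332, positive for every pair of groups. The lowest value was between the Smad3(RA/KP) groups. Mapped sequence was 1.15 to 1.27 Gb in the replicate 1 libraries and 1.41 to 1.81 Gb in the replicate 2 libraries. Equally numbered libraries thus shared part of their deviation, but no source states that they were run together. A replicate block within each line gave 0 members in Smad3(RA/KP) cells, 376 and 372 genes, and a log2 difference of 0.12 for AHRR between the untreated lines.

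In Smad3(RA/KP) cells 0 members were called with no filter on low values (242 genes) or no mean-variance trend, 2 with the GC trend removed, and 0 to 1 when libraries were left out (163 to 2622 genes). The 2622 came without untreated Smad3(RA/KP) replicate 1, with 37.9% higher, against 69.9% as reported. In wild-type cells 2 were called with no filter (287 genes; CYP1A1 besides CYP1B1), with no trend and with the GC trend removed (1205 genes), and 1 to 2 when libraries were left out (106 to 1011 genes). Without a filter 83.5% of calls in Smad3(RA/KP) cells were higher. The mean of both responses called 1 member at a minimum of 5 TPM, where AHR and AHRR are not tested, 4 with the GC trend removed (ARNT besides), and 1 to 3 when libraries were left out; it called 1484 genes as reported, 959 with no filter, 870 with no block and 680 to 2920 when libraries were left out. The difference of responses called 3 genes as reported and 0 to 8 when libraries were left out. Except where stated, the cause was not tested.

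With the GC trend removed the sign changed for TIPARP in Smad3(RA/KP) cells (0.058), for AHR in the difference of responses (0.074) and between the treated lines (0.089), and for ARNT between the untreated lines (-0.017; quantile normalization, -0.013). When libraries were left out the sign changed for ARNT in Smad3(RA/KP) cells (-0.10 and -0.21, range -0.21 to 0.60), AHR in the difference of responses (0.043, range -0.57 to 0.043), AHR (-0.038, range -0.038 to 0.37), AHRR (0.14 and 0.15) and ARNT (-0.26) between the untreated lines, AHR (0.21 and 0.060, range -0.40 to 0.21) and ARNT (0.027, range -0.79 to 0.027) between the treated lines, and TIPARP in the mean response (-0.0034 and -0.020, range -0.020 to 0.16). Where 1 library of a group was left out, the remaining one was assumed to vary like the other groups. Coverage near 1 limits AHR, AHRR and CYP1A1, and ARNT is limited as well, with a coverage of 1.33 to 3.77.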
